A study of Mus musculus with 36 samples.

Results

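Genes of DNA methylation and of Polycomb repressive complex 2 (PRC2) were followed through the developing mouse heart: Dnmt1, Uhrf1, Hells, Dnmt3a, Dnmt3b, Tet1, Ezh2, Ezh1, Eed and Suz12. They were taken by symbol, as 10 of the 20701 genes on an Affymetrix mouse array of 45101 probe sets, and 31 probe sets carry their symbols. A probe set is a group of short probes that reads 1 stretch of transcript, so a gene with several of them is read several times. Of the 31, 27 had a mean above 5 on the log2 scale in at least 1 stage. Each gene was read first from the probe set with the highest mean over all arrays, and all 10 of these passed that level. The members and the gene lists used beside them were chosen with earlier results of these arrays known.

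The 36 arrays came from hearts of OF1 mice at 12 stages with 3 arrays each. Embryos were taken daily between E10.5 and E19.5, and adults were young (10 weeks) or old. The old mice were 14 months old according to the series' design text, and the study's methods give a younger age. At E10.5 and E11.5 all 3 arrays were of mixed sex and numbered 1 to 3, and from E12.5 on a stage had a female, a male and a mixed array, the last with hearts of both sexes together. The groups shared strain and tissue and no genotype or treatment was applied, so the stages differ in age and in everything that comes with it, including cell composition. The extraction protocol in the labels names liver, in contrast to the study's methods. Liver genes (albumin and others) averaged 3.35 to 3.93 over the stages with 0 of 5 above 5, and cardiomyocyte genes averaged 11.4 to 12.0. The sample titles change form within E16.5, where the female array and all later embryonic arrays carry a prefix that the male and mixed arrays and all earlier ones lack, and adult titles have another. No source used here calls this a batch. Within E16.5 the female array read 8.91 for Dnmt1, 6.82 for Uhrf1 and 7.39 for Ezh2, between the male and mixed arrays (8.92 and 8.86, 6.76 and 6.94, 7.27 and 7.42). Ezh1 and Tet1 also lay between them. The female array was below both for Dnmt3a (9.05 against 9.17 and 9.11), Suz12 (9.01 against 9.27 and 9.17) and Hells (7.10 against 7.36 and 7.13). It was above both for Eed (5.39 against 5.11 and 4.85) and Dnmt3b (6.36 against 6.13 and 6.31). In the other stages title form and stage cannot be told apart. In bulk tissue, fewer cells of a type and less RNA per cell cannot be told apart.

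DNA methylation marks cytosines that precede guanines. Dnmt1 copies the mark onto the new strand after replication, Uhrf1 brings Dnmt1 to hemimethylated sites, and Hells, a chromatin remodeller, opens packed chromatin for the methyltransferases. Dnmt3a and Dnmt3b set new marks, and Tet1 oxidises methylcytosine on the way to its removal. PRC2 methylates histone H3 and keeps developmental genes silent. Ezh2 or its relative Ezh1 is the catalytic subunit, Suz12 holds the complex together, and Eed binds the finished mark and raises the activity. In many tissues Ezh2 belongs to dividing cells and Ezh1 to cells that no longer divide.

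Promoter windows are shown for 3 members with large falls on their probe sets of highest mean (Uhrf1, Ezh2 and Dnmt1) and for Ezh1, which rose, so that the sequences stand beside their course. Each runs from 250 bases before to 50 bases after a RefSeq transcript start (GRCm38.p6), 5′ to 3′ on the gene's strand. Capitals mark matches on either strand to an E2F motif (GGCGNGAA), a cell cycle homology region motif (CHR, TTTGAA) or a CCAAT box bound by NF-Y (CCAAT). The first Uhrf1 window (chr17:56303087-56303386, plus strand) holds the E2F match and 3 CCAAT matches, and the second (chr17:56304063-56304362, plus strand) holds 2 CCAAT matches. Ezh2 (chr6:47594981-47595280, minus strand) holds 3 CCAAT boxes. The Dnmt1 window with the most CG pairs of its 3 (chr9:20952574-20952873, minus strand) holds 3 CCAAT matches. In this window and the first Uhrf1 window, the stretch CCAATTGG matches on both strands and counts as 2. Ezh1 (chr11:101226414-101226713, minus strand) holds no match to the 3 motifs.
Uhrf1 window 1: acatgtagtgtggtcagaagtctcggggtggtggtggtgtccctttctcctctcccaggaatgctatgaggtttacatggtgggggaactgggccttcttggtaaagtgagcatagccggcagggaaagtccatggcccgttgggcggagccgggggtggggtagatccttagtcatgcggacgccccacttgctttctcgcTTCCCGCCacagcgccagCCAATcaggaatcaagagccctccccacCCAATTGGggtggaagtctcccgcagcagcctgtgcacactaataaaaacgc
Uhrf1 window 2: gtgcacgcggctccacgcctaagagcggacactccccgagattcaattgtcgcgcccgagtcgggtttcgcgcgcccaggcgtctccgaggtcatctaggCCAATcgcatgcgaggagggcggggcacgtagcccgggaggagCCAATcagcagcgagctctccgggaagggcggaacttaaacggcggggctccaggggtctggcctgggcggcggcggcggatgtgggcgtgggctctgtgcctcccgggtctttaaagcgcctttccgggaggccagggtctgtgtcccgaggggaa
Ezh2: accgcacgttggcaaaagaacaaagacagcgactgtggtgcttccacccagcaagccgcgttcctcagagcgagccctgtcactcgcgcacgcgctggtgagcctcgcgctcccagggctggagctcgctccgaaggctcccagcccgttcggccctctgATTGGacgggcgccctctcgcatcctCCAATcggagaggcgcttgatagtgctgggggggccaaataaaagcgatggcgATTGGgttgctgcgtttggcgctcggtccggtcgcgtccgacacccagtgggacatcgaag
Dnmt1: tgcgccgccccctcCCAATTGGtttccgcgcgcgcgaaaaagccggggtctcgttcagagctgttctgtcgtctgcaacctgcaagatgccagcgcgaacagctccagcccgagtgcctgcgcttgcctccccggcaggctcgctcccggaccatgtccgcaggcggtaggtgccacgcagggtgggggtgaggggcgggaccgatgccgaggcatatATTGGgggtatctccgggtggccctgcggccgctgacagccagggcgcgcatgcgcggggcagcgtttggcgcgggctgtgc
Ezh1: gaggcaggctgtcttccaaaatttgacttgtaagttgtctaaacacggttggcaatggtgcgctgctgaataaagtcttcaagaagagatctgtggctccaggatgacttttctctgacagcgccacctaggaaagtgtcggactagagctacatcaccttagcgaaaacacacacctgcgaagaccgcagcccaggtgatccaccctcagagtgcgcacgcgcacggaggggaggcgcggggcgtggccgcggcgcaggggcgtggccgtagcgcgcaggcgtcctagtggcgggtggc

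All 10 members had at least 1 window, 15 in all. CCAAT matches were in 7 of the 15 windows, those of 5 members (Dnmt1, Eed, Ezh2, Suz12 and Uhrf1), and in 37.41% of all 32851 mouse windows. CHR matches were in 4 of the 15 windows, 1 each for Dnmt1 (a window that is not shown), Dnmt3b, Eed and Suz12, and in 17.89% of all windows. The E2F match was in 1 of the 15 windows, that of Uhrf1, and in 3.57% of all windows. These shares are per window, and a member can have several windows. The printed Ezh2 window holds 31 CG pairs and that of Ezh1 holds 23, against a median of 7 over all windows. These are matches of letters, and nothing about binding was measured.

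The heart at E10.5 was compared with the young adult heart to ask which members differ between the early organ and the mature one. At E10.5, 8 of the 10 were higher, Ezh1 was lower, and Eed did not pass. A wide call was an adjusted p under 0.05 in limma with Benjamini-Hochberg adjustment over all probe sets and a mean above 5 in some stage. By this call 25.8% of all genes were higher at E10.5 and 14.8% lower. A strict call asked for an adjusted p under 1e-05 and a change above 2 on the log2 scale (4-fold), and 4 of 10 members (Uhrf1, Ezh2, Dnmt1 and Dnmt3a) passed it as higher, against 5.14% of all genes. Among all genes with a mean above 5 the median difference was 0.34.

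**Figure D1:**
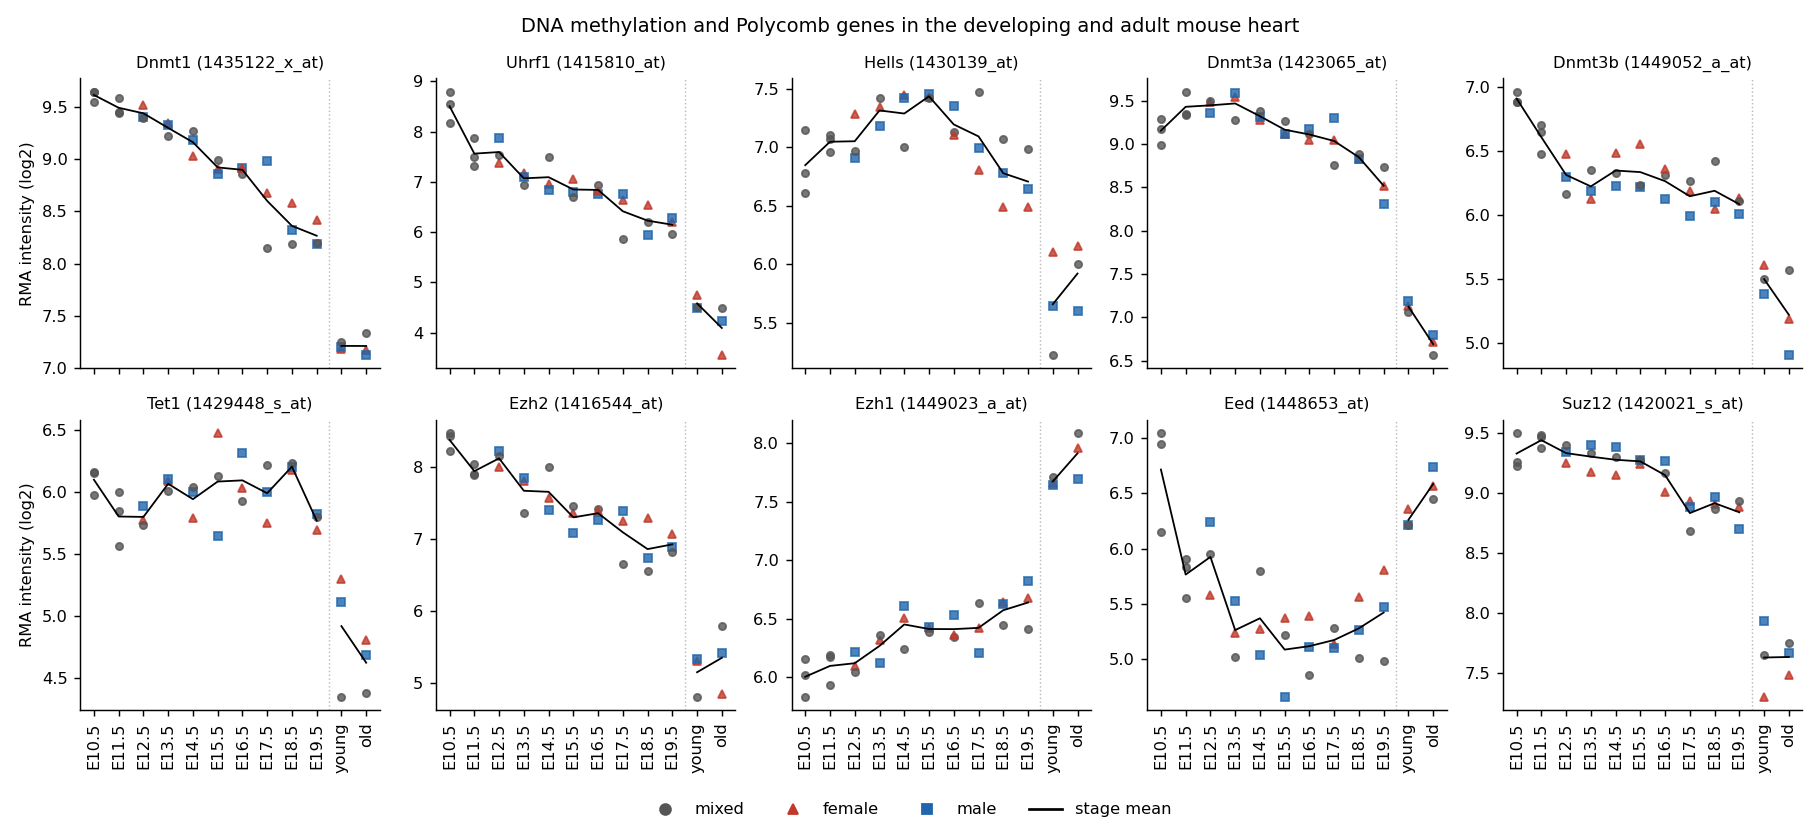
RMA intensity (log2) of the 10 members over 12 stages, each read from its probe set of highest mean, with 1 point per array (circle mixed, triangle female, square male) and a line through the stage means. Levels are not comparable between panels. From E19.5 to young adult 8 members drop, while Ezh1 rises to 7.67 and Eed dips to 5.09 at E15.5.

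The comparisons of embryonic stages with young adult share the young adult arrays, and their strict calls became fewer toward birth. Uhrf1, Ezh2, Dnmt1 and Dnmt3a passed against young adult at E11.5 (4.27% of all genes), E12.5 (4.02%) and E13.5 (3.37%). At E14.5 Dnmt1 lay just under the fold limit with 1.95, and Dnmt3a, Ezh2 and Uhrf1 passed (3.25% of all genes), as they did at E15.5 (2.91%). At E16.5 Dnmt3a lay just under it with 1.99, and Ezh2 and Uhrf1 passed (2.66% of all genes). With arrays centred or quantile-normalized, Dnmt1 (1.88 and 1.94) and Dnmt3a were under that limit already at E10.5. At E17.5 (1.85%), E18.5 (1.79%) and E19.5 (1.02%) no member passed, while all 10 had an unadjusted p under 0.05 in limma at each of these stages, as had 45.2%, 44.8% and 40.8% of all genes. All 10 members differed between E19.5 and young adult by the wide call, 8 as higher (15.8% of all genes) and Ezh1 and Eed as lower (9.48%).

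Among the genes that keep methylation through replication, Uhrf1 changed most on the probe sets of highest mean. Its 3 E10.5 arrays read 8.55, 8.80 and 8.17, and its E19.5 arrays read 6.20 (female), 6.28 (male) and 5.95 (mixed). The young adult arrays read 4.75, 4.49 and 4.50 in the same order of sex. No E10.5 array came near an E19.5 array, and no E19.5 array near an adult one. Uhrf1 was higher at E10.5 than in young adults by 3.92 ± 0.227 (log2, SE; 15.2-fold; limma adjusted p = 2.06e-15) and at E19.5 by 1.57 ± 0.227 (adjusted p = 2.34e-06). Its other probe set, 1415811_at, with stage means of 5.67 at most, was higher at E10.5 by 1.16 and differed by 0.14 between E19.5 and young adult (adjusted p = 0.504).

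Dnmt1 declined through the embryo and was lower again in the adult. At E10.5 its arrays read 9.55, 9.65 and 9.65, at E19.5 8.42, 8.18 and 8.20, and at 10 weeks 7.18, 7.20 and 7.25. The stage mean was lower on each of the 9 days of the embryonic series than on the day before, without overlap between the 3 groups named. Dnmt1 was higher at E10.5 than in young adults by 2.40 ± 0.139 (5.29-fold; limma adjusted p = 1.95e-15) and at E19.5 by 1.06 ± 0.139 (adjusted p = 4.37e-07). The other probe sets, 1422946_a_at and 1447877_x_at, gave 3.05 and 2.46 for E10.5 and 1.22 and 1.13 for E19.5. Its largest spread was at E17.5 (SD 0.42), where the mixed array read 8.15 against 8.68 and 8.98. The same E17.5 mixed array was also the lowest of its stage for Uhrf1 (5.86), Ezh2 (6.65), Dnmt3a (8.76) and Suz12 (8.68), and the highest for Hells (7.48), Ezh1 (6.63), Dnmt3b (6.27), Tet1 (6.22) and Eed (5.28).

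For Hells the 3 probe sets did not give the same course. The probe set of highest mean, 1430139_at, read 6.78, 6.61 and 7.15 at E10.5, 6.49, 6.65 and 6.99 at E19.5, with 6.11, 5.64 and 5.22 for young adults. It peaked at E15.5 (7.44 ± 0.02, SD, n = 3) and was higher at E10.5 than in young adults by 1.19 ± 0.200 (limma adjusted p = 7.4e-06), with overlap between E10.5 and E19.5. In contrast, 1417541_at declined from a mean of 8.53 at E10.5 through 6.01 at E19.5 to 3.73 in the young adult, a difference of 4.80 ± 0.206 (27.8-fold; adjusted p = 1.51e-18). This was the largest difference of any of the 31 probe sets. The third, 1453361_at, gave 3.15 for E10.5 and 1.71 for E19.5 against young adult. All 3 probe sets were higher in the embryo than in the young adult at both ends of the series.

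**Figure D2:**
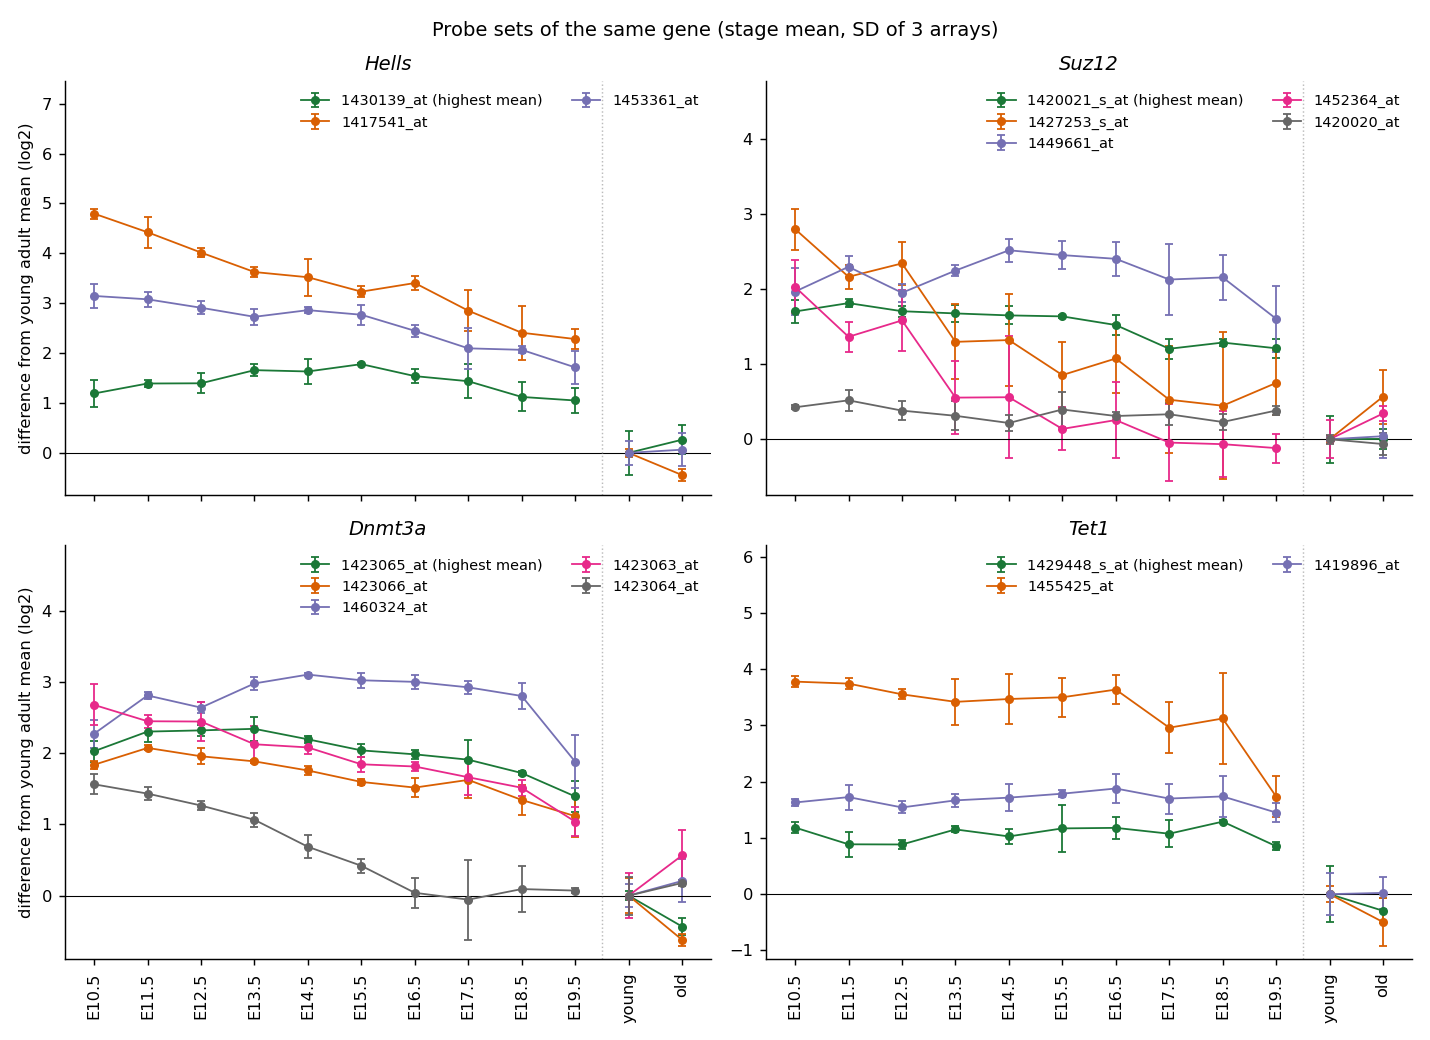
Stage means of each probe set of Hells, Suz12, Dnmt3a and Tet1 as log2 difference from that probe set's young adult mean, with the SD of 3 arrays; probe sets that stayed at or under 5 in every stage are left out. Hells 1417541_at starts at 4.80 and 1430139_at at 1.19, and Suz12 1427253_s_at falls from 2.80 while 1420021_s_at stays between 1.21 and 1.81 through the embryo.

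Of the methyltransferases that set new marks, Dnmt3a kept a high level through mid-gestation. The E10.5 arrays read 9.18, 8.99 and 9.29, the E19.5 arrays 8.51, 8.31 and 8.74 and the young adult arrays 7.13, 7.19 and 7.06. The highest stage mean was at E13.5 (9.47 ± 0.17, SD, n = 3). Dnmt3a was higher at E10.5 than in young adults by 2.03 ± 0.130 (4.08-fold; limma adjusted p = 2.27e-14) and at E19.5 by 1.39 ± 0.130 (adjusted p = 6.18e-10). At both stages no array overlapped the young adults.

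The other 4 Dnmt3a probe sets were all higher at E10.5, by 1.56 to 2.68, and parted within the embryo. Probe set 1460324_at was higher at E14.5 (9.12) than at E10.5 (8.29) and fell by 0.92 from E18.5 to E19.5 (limma adjusted p = 0.00117). By contrast, 1423064_at declined from 6.76 at E10.5 to 5.23 at E16.5 and at E19.5 differed from young adult by 0.07 (adjusted p = 0.815).

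Dnmt3b changed less. Its arrays read 6.89, 6.88 and 6.96 at E10.5, 6.14, 6.01 and 6.11 at E19.5, and young adults 5.61, 5.39 and 5.50, so the 3 stages did not overlap. The difference from young adult was 1.41 ± 0.142 at E10.5 (2.65-fold; limma adjusted p = 6.64e-10) and 0.58 ± 0.142 at E19.5 (adjusted p = 0.00194). With arrays centred on the median of their well-measured probe sets the E19.5 difference was 0.40 (adjusted p = 0.0795). The second probe set, 1418351_a_at, gave 1.29 and 0.94.

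Tet1, the member that removes methylation, was level in the embryo on its probe set of highest mean, 1429448_s_at, with stage means from 5.77 to 6.21. At E10.5 it read 6.17, 6.16 and 5.98, at E19.5 5.69, 5.82 and 5.80, and at 10 weeks 5.29, 5.11 and 4.35. The young adult mixed array lay below the others, and both embryonic groups lay above all 3 adult arrays. Tet1 was higher at E10.5 by 1.18 ± 0.188 (limma adjusted p = 3.26e-06) and at E19.5 by 0.85 ± 0.188 (adjusted p = 0.000729). Probe set 1455425_at gave 3.78 at E10.5 (13.7-fold) and fell by 1.39 from E18.5 to E19.5 (adjusted p = 0.011), and 1419896_at gave 1.63. The fourth, 1419897_at, read under 5 in every stage and was 0.60 lower at E10.5 (adjusted p = 0.0295).

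The catalytic subunits of PRC2 went in opposite directions. Ezh2, with 1 probe set, read 8.43, 8.47 and 8.23 at E10.5, 7.07, 6.89 and 6.82 at E19.5, and young adults 5.30, 5.33 and 4.81. No array of 1 stage reached into the next. Ezh2 was higher than in young adults by 3.23 ± 0.212 at E10.5 (9.37-fold; limma adjusted p = 4.11e-14) and by 1.78 ± 0.212 at E19.5 (adjusted p = 7.19e-08).

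Ezh1 read 6.02, 6.16 and 5.83 at E10.5, 6.67, 6.83 and 6.41 at E19.5, and young adults 7.66, 7.64 and 7.71. It was lower at E10.5 by 1.67 on the log2 scale (log2 difference −1.67 ± 0.134, 3.18-fold lower; limma adjusted p = 4.26e-12) and at E19.5 (−1.03 ± 0.134; adjusted p = 3.1e-07), again without overlap. A second probe set, 1418290_a_at, gave −2.35 at E10.5 and passed the strict call. The remaining pair, 1429629_at and 1429630_at, read under 3 in every stage and differed by −0.68 (adjusted p = 0.000642) and −0.31 (adjusted p = 0.0831).

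**Figure D3:**
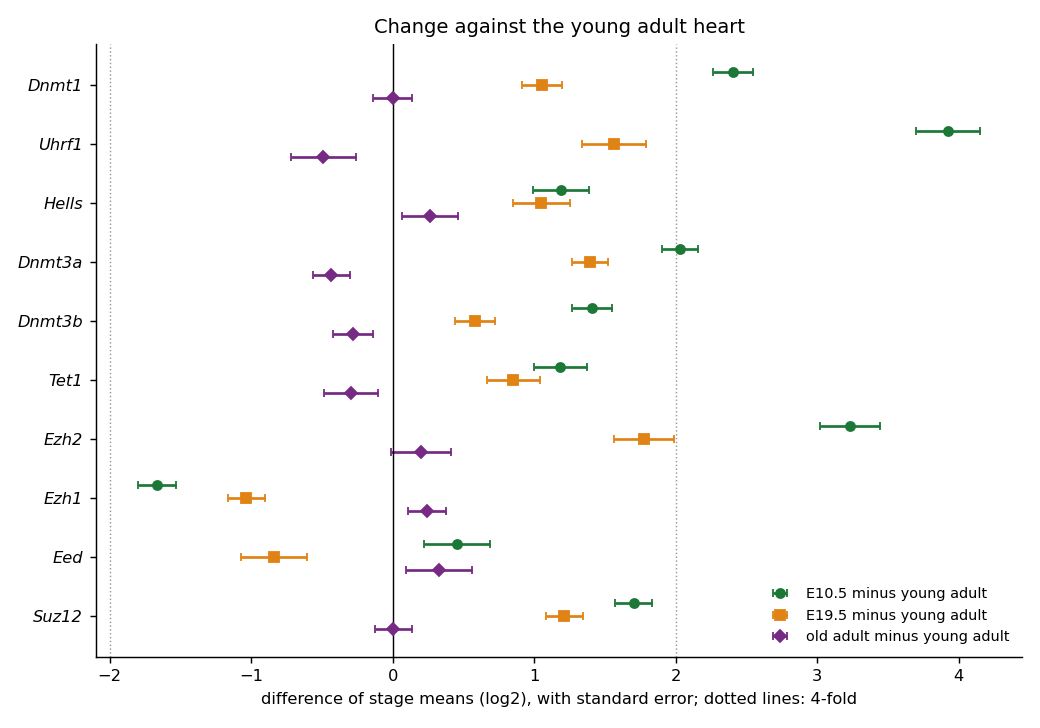
Difference of stage means from young adult (log2, with the standard error of the limma fit) for the probe set of highest mean of each member: E10.5 (circles), E19.5 (squares) and old adult (diamonds). Dotted lines mark a 4-fold change. Uhrf1 (3.92) and Ezh2 (3.23) lie farthest right at E10.5, Ezh1 lies left of zero in the embryo (−1.67 and −1.03), and the old adult points lie between −0.49 and 0.33.

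Eed followed neither course. Its probe set 1448653_at read 6.95, 7.05 and 6.15 at E10.5, the third array well below the others, and 5.81, 5.47 and 4.99 at E19.5. Young adults read 6.36, 6.21 and 6.21 and old adults 6.57, 6.74 and 6.45. The stage mean was 6.72 at E10.5, 5.09 at E15.5 and 6.26 in young adults, so both ends of the series lay above its middle. E10.5 and young adult overlapped, with a difference of 0.46 ± 0.233 (limma adjusted p = 0.0873). Leaving out the third E10.5 array made it 0.74 (adjusted p = 0.00922), whereas quantile normalization gave −0.03 and centring gave −0.07, with the sign turned. Eed was lower at E19.5 than in young adults (−0.84 ± 0.233, adjusted p = 0.00618), and without the E19.5 mixed array the difference was −0.62 (adjusted p = 0.0635). Its other probe set, 1453830_at, read under 3 in every stage and gave −0.42 at E10.5 (adjusted p = 0.0669).

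For Suz12 the probe sets again took different courses. The one of highest mean, 1420021_s_at, read 9.26, 9.23 and 9.50 at E10.5, 8.89, 8.70 and 8.94 at E19.5, and young adults 7.30, 7.93 and 7.65. Most of its change lay between E19.5 and the adult: the difference from young adult was 1.70 ± 0.129 at E10.5 (3.26-fold; limma adjusted p = 1.25e-12) and 1.21 ± 0.129 at E19.5 (adjusted p = 9e-09). Probe set 1449661_at behaved alike, with 1.97 and 1.61. In contrast, 1452364_at gave 2.03 at E10.5 and −0.12 at E19.5 (adjusted p = 0.823), and 1427253_s_at gave 2.80 and 0.75 (adjusted p = 0.131). Probe set 1420020_at gave 0.43 and 0.38, both past the wide call.

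To ask whether related members changed unequally, the difference between a pair was taken within each array and its change, E10.5 minus the later stage, was tested. Ezh2 minus Ezh1 was 2.37 ± 0.05 (SD, n = 3) at E10.5, it was 0.29 ± 0.19 by E19.5, and −2.52 ± 0.33 in the young adult. The difference between the catalytic subunits thus changed by 4.90 ± 0.193 (log2, SE) from E10.5 to young adult and by 2.09 ± 0.115 from E10.5 to E19.5, without overlap. Uhrf1 minus Dnmt1 changed by 1.52 ± 0.216 and 1.01 ± 0.220, also without overlap. For Suz12 minus Eed the changes were 1.25 ± 0.435 and −0.80 ± 0.457, and E10.5 and E19.5 overlapped. Dnmt3b minus Dnmt3a changed by −0.62 ± 0.110 to young adult and by 0.19 ± 0.121 to E19.5, again with overlap in the latter. Two-sided exact permutation tests of 3 arrays against 3 cannot go below 0.1, which 6 of the 8 changes reached (Benjamini-Hochberg adjusted p = 0.133 over the 8). The other two were those that overlapped (Dnmt3b minus Dnmt3a, exact p = 0.2, and Suz12 minus Eed, exact p = 0.3). The level of a pair's difference depends on the probes, so only its change is read.

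Within the embryo, E10.5 was compared with E19.5. By the wide call 7 members were higher at E10.5 (Dnmt1, Dnmt3a, Dnmt3b, Eed, Ezh2, Uhrf1 and Suz12; 21.3% of all genes) and Ezh1 was lower (−0.63 ± 0.134, limma adjusted p = 0.000288; 13.2% of all genes). Uhrf1 was the member past the strict call, with a difference of 2.36 ± 0.227 (adjusted p = 1.08e-09; 1.52% of all genes). The others ranged from 0.49 ± 0.129 for Suz12 (adjusted p = 0.00275) over 1.30 ± 0.233 for Eed (adjusted p = 4.08e-05) and 1.35 ± 0.139 for Dnmt1 (adjusted p = 4.09e-09) to 1.45 ± 0.212 for Ezh2 (adjusted p = 1.88e-06). Hells and Tet1 gave 0.14 (adjusted p = 0.57) and 0.33 (adjusted p = 0.148) on their probe sets of highest mean. Their probe sets 1417541_at and 1455425_at gave 2.51 (adjusted p = 3.58e-11) and 2.04 (adjusted p = 1.18e-06). Several of these calls depended on the setting. Dnmt3a was not called with arrays centred (0.29, limma adjusted p = 0.0711) or quantile-normalized (0.25, adjusted p = 0.166), nor was Suz12 (0.15, adjusted p = 0.389, and 0.11, adjusted p = 0.605). With the level of the array's hybridization controls as a covariate Eed was not called (0.61, limma adjusted p = 0.115), whereas Hells 1430139_at was called as higher at E10.5 (0.81, adjusted p = 0.00538). The sign for Hells 1430139_at turned with centring (−0.20) and quantile normalization (−0.23), and that for Tet1 1429448_s_at with centring (−0.01).

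Most of the decline took several days, and few single days passed. From E10.5 to E11.5, Uhrf1 fell by 0.94 (SE 0.227; limma adjusted p = 0.0207) and Eed fell by 0.95 (SE 0.233; adjusted p = 0.0232), where 1.22% of all genes were lower and 1.14% higher. The E11.5 arrays of Uhrf1 read 7.88, 7.49 and 7.32 and those of Eed 5.83, 5.91 and 5.56, all below the E10.5 arrays. Both calls were lost when E10.5 array 1 or 2 or E11.5 array 2 or 3 was left out, with differences of −0.80 to −0.92 for Uhrf1 and −0.79 to −1.02 for Eed. On the other 8 days no member passed in limma on its probe set of highest mean, and 0 to 3 members had an unadjusted p under 0.05, where 2.91% to 15.6% of all genes did.

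In old against young adult hearts the members moved little. Dnmt3a was the single member called, lower in old hearts (1.75% of all genes were lower and 4.0% higher). Its old adult arrays read 6.71 (female), 6.80 (male) and 6.56 (mixed), all under the young adult arrays, a difference of −0.43 ± 0.130 (limma adjusted p = 0.0385). Probe set 1423066_at gave −0.62 (adjusted p = 0.00665), while 1423063_at, 1460324_at and 1423064_at gave 0.56, 0.21 and 0.18 without passing. The call was lost on leaving out any of the 6 arrays (adjusted p from 0.051 to 0.132) and on averaging the 5 probe sets (−0.02). With the level of the array's hybridization controls as a covariate, Dnmt3a was not called (−0.45, adjusted p = 0.0775), while Uhrf1 was lower (−0.88, adjusted p = 0.0208) in old hearts. By the same fit the Hells probe sets went opposite ways, 1430139_at higher (0.69, limma adjusted p = 0.021) and 1417541_at lower (−0.85, adjusted p = 0.00943), and Tet1 1455425_at was lower (−1.19, adjusted p = 0.00267). Uhrf1 read 3.55, 4.24 and 4.49 in old adults and differed by −0.49 ± 0.227 (adjusted p = 0.19), and Ezh1 read 7.96, 7.69 and 8.09 (0.24 ± 0.134, adjusted p = 0.281). The other members differed by −0.30 to 0.33 with adjusted p from 0.237 to 0.999.

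Male and female arrays were compared over 9 stage pairs from E13.5 on with stage as a block, leaving out E12.5 as the study's methods do. No member was called, where 0.0145% of all genes were higher and 0.0193% lower in males. Dnmt3b was the 1 member with an unadjusted p under 0.05 on its probe set of highest mean (male minus female −0.17 ± 0.0736, limma adjusted p = 0.614), and it was higher in the male in 2 of 9 pairs.

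The course of each member was set beside those of 11307 other genes by Pearson's r over the 12 stage means, a description in which all values share the same arrays and normalization. The 3 genes most like Dnmt1 were Mcm7 (r = 0.999), Orc6 (0.996) and Rnf26 (0.995), of which Mcm7 belongs to the replicative helicase and Orc6 to the origin recognition complex. Those for Ezh2 were Trip13 (0.996), Dbf4 (0.996) and Lig1 (0.994), a checkpoint ATPase, an activator of the replication kinase and a DNA ligase. For Uhrf1 they were Incenp (0.995), Gmnn (0.993) and Trip13 (0.990), where Gmnn (geminin) blocks origin relicensing. Among the genes nearest to Dnmt3a were Erbb2 (0.994) and Slc38a1 (0.992), and Dnmt3b was nearest to 2810408I11Rik (0.979), Pak1ip1 (0.977) and Alpk2 (0.976).

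Suz12 on its probe set of highest mean was nearest to Tmsb10 (0.997), Hand2 (0.996), a heart transcription factor, and Dpysl3 (0.996). Ezh1 was nearest to H2-Aa (0.995), an antigen-presenting molecule, Oas2 (0.993), an interferon-induced enzyme, and Entpd2 (0.992). For Eed they were Ccdc53 (0.993), Emg1 (0.992) and Churc1 (0.991), for Hells Ckap2l (0.990), Snhg8 (0.988) and Celf2 (0.986), and for Tet1 Snhg3 (0.985), 9430064K01Rik (0.980) and Dhx35 (0.977). Among the members themselves r was 0.988 for Dnmt1 with Ezh2, 0.983 for Ezh2 with Uhrf1, −0.971 for Ezh1 with Ezh2 and −0.546 for Dnmt3a with Eed. Ezh1 was as negative with Suz12 (−0.974) and Dnmt3a (−0.974) as with Ezh2, and with Eed it gave 0.398.

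Genes of DNA replication and mitosis declined over the same stages. The mean of 19 S phase genes was 8.06 at E10.5, reached 6.17 by E19.5, and was 5.16 in the young adult, and that of 18 mitosis genes was 7.88, 6.26 and 4.13. Between E10.5 and young adult 15 of the 19 S phase genes passed the strict call as higher (median log2 difference 3.16) and 17 of the 18 mitosis genes (median 3.75), beside a median of 0.34 over all genes above 5. The 10 highest were the mitosis genes Bub1 (5.37), Cenpe (5.01), Top2a (4.99), Cdk1 (4.74), Ccnb2 (4.66), Birc5 (4.59), Ccna2 (4.50), Mki67 (4.03) and Cdc20 (3.91) and the S phase gene Rrm2 (5.01), a subunit of the enzyme that makes deoxynucleotides. The part of this decline in the values of the members was not tested.

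**Figure D4:**
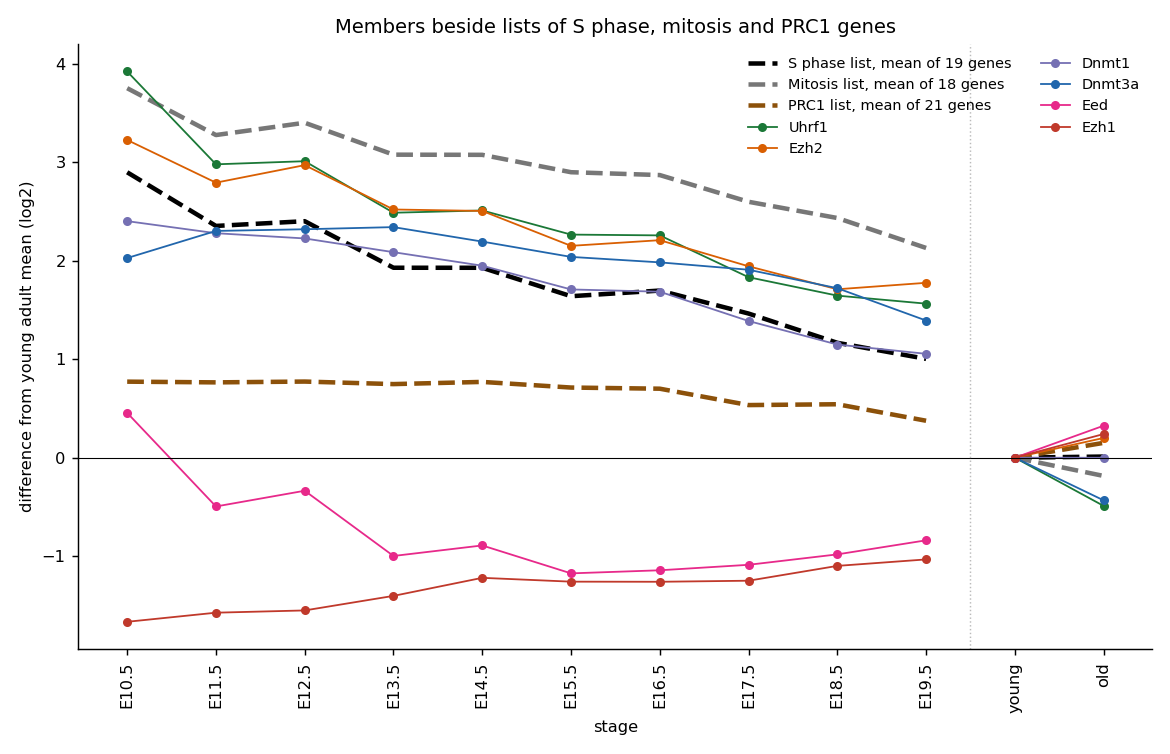
Log2 difference from the young adult mean over 12 stages for 6 members (probe set of highest mean) and for the mean of the S phase, mitosis and PRC1 lists (dashed). At E10.5 Uhrf1 (3.92) and Ezh2 (3.23) stand near the S phase and mitosis lines, and Dnmt1 (2.40) and Dnmt3a (2.03) lie below both. The PRC1 line stays closer to zero, and Eed and Ezh1 lie below zero from E11.5 to E19.5.

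Other Polycomb genes changed less as groups. All 7 PRC2 partners were found: 5 were higher at E10.5 than in young adults by the wide call, Phf1 and Phf19 were lower, 0 passed the strict call, and the median was 0.85. Of all genes, 25.8% were higher and 14.8% lower by the wide call. Rbbp4 (1.99) and Rbbp7 (1.61), histone chaperones of the PRC2 core, were among those higher. Of 21 genes of PRC1, the complex that ubiquitinates histone H2A, 11 were higher and Cbx7 was lower (−1.93 ± 0.166, limma adjusted p = 2.08e-11), with a median of 0.47. The strict call as higher (5.14% of all genes) was passed by 3, Rnf2 (3.16), a catalytic subunit, Kdm2b (2.43), which binds unmethylated CG-rich DNA, and Phc1 (2.27). They are named because they were called, after their values were seen. Of its other subunits, Bmi1 (0.04) and Ring1 (−0.05) did not pass.

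Among 6 genes that remove the Polycomb marks, 3 were higher (Asxl2, Bap1 and Asxl1), Kdm6a, a histone demethylase, was lower (−0.86 ± 0.252, limma adjusted p = 0.00407), and the median was 0.87. Of 13 further genes of DNA methylation, 6 were higher and Zbtb4, a reader of methylated DNA, was lower with the one strict call in these 4 lists in that direction (−2.68 ± 0.168, adjusted p = 1.35e-14), with a median of 0.18. Tet2 (0.18) and Tet3 (−0.29), the relatives of Tet1, did not pass. By fold the lowest of the listed genes called were Zbtb4, Cbx7, Phf19 (−1.09), Phf1 (−0.87) and Kdm6a, of which Phf1 and Phf19 guide PRC2 to chromatin.

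In old against young adult hearts no gene of these lists passed the strict call. Of all genes, 4.0% were higher in old hearts and 1.75% lower by the wide call. By the wide call Rnf2 (1.13), Mbd1 (0.92), Phc3 (0.85), Bmi1 (0.75), Asxl1 (0.60), Pcgf3 (0.54) and Aebp2 (0.43) were higher and Zbtb38 (−1.30), Mtf2 (−0.57) and Cbx2 (−0.47) lower, as was the S phase gene Prim1 (−0.66). These were named after their values were seen.

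Cell type markers moved with stage as well. The mean of 6 leukocyte genes was 3.56 at E10.5, 6.36 in young adults and 7.19 in old ones. By the wide call 5 of the 6 were lower at E10.5 than in young adults. Cd68 was lower as well (−1.34) but had no stage mean above 5. Of 5 endothelial genes 4 were lower at E10.5 by the wide call, with means of 6.41 at E10.5, 7.39 in young adults and 8.16 in old ones. The remaining endothelial gene, Tek, was higher at E10.5 without passing (0.74, limma adjusted p = 0.0523). The 8 erythroid genes averaged 7.56 at E10.5 and 3.69 at E19.5, and 3 of them, the embryonic globins Hbb-y, Hbb-bh1 and Hba-x, passed the strict call against young adult. The 4 epicardial genes averaged 5.91 at E10.5 and 4.45 in young adults, but by the wide call 2 were higher at E10.5 and 1, Msln (−1.35), was lower. The 5 fibroblast genes averaged 7.26 and 9.59, with 3 lower at E10.5 and 1, Pdgfra (0.99), higher. The 3 adipocyte genes found averaged 2.30 and 3.76. Of these, 1 had a stage mean above 5, Adipoq, which was lower at E10.5 (−2.83). Cidec (−1.13) and Lep (−0.42) stayed under that level. The part of these cell types in the members' values was not tested.

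Hybridization controls, foreign transcripts added to each sample before it is put on the array, also followed stage. Their mean over 18 probe sets was 9.90 at E10.5 and 11.2 by E19.5, against 12.2 for young and 11.4 for old adults. Within stages the level of several member probe sets went with that of the controls, over 36 arrays as deviations from the stage means. Pearson's r was −0.83 for Suz12 1427253_s_at, −0.80 for Suz12 1452364_at, −0.75 for Tet1 1455425_at, −0.64 for Dnmt1 1422946_a_at and −0.64 for Hells 1417541_at. On the probe sets of highest mean it was −0.60 for Eed, −0.56 for Ezh2, −0.55 for Uhrf1 and 0.70 for Hells (1430139_at). For Ezh1 1418290_a_at it was 0.65. For Suz12 1420021_s_at, Ezh1 and Dnmt3a on their probe sets of highest mean r was 0.13, 0.11 and −0.05. Other Dnmt3a probe sets ranged from −0.59 (1423063_at) to 0.52 (1423066_at). The third E10.5 array, low for Eed and Uhrf1, had the highest control level of its stage (10.35 against 9.68 and 9.68), as had the E17.5 mixed array (12.0).

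With the control level as a covariate, the same 8 members were higher and Ezh1 was lower at E10.5 than in young adults. Uhrf1 then gave 2.82 ± 0.384 (limma adjusted p = 9.13e-07) in place of 3.92, Ezh2 2.20 ± 0.357 in place of 3.23, Dnmt1 2.00 ± 0.260 in place of 2.40 and Ezh1 −1.56 ± 0.261 in place of −1.67. The second Ezh1 probe set, 1418290_a_at, gave −1.19 (limma adjusted p = 0.00601) in place of −2.35. Hells 1430139_at gave 2.40 and 1417541_at 3.66, so that its probe sets came closer. Suz12 1420021_s_at gave 1.82, whereas 1427253_s_at gave −0.04 (adjusted p = 0.968) and 1452364_at −0.27 (adjusted p = 0.701). Eed gave −0.78 ± 0.380 (adjusted p = 0.145). Control level and stage go together, and their parts in these values cannot be told apart.

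**Figure D5:**
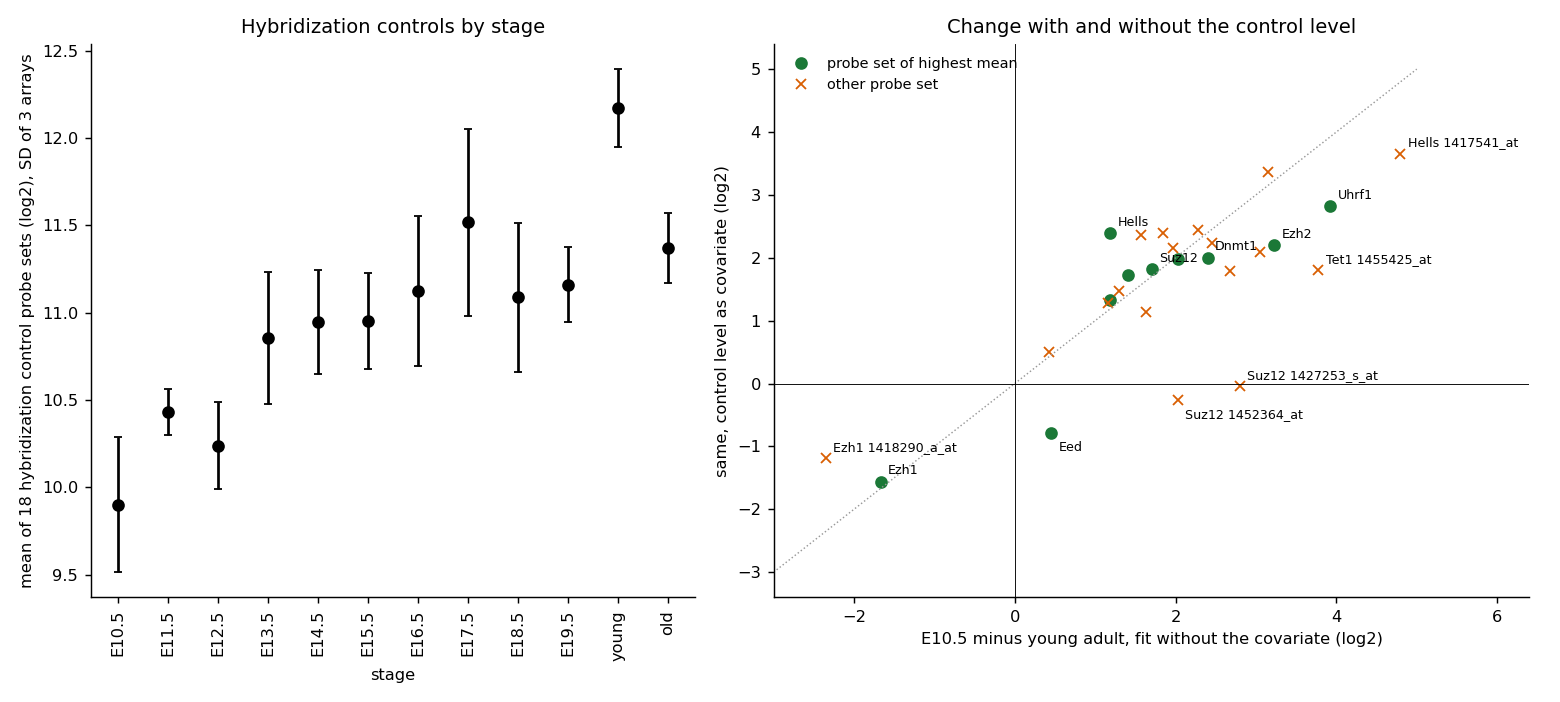
Left, mean of 18 hybridization control probe sets (log2, SD of 3 arrays) by stage, from 9.90 at E10.5 to 12.2 in young adults. Right, E10.5 minus young adult (log2) for the 27 member probe sets with a stage mean above 5, fitted without (x axis) and with (y axis) the control level as a covariate; the dotted line marks equal values. Suz12 1427253_s_at goes from 2.80 to −0.04, Ezh1 1418290_a_at from −2.35 to −1.19, and Ezh1 on its probe set of highest mean from −1.67 to −1.56.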

How the data were processed

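Total RNA of mouse hearts was amplified, labelled and hybridised to 36 Affymetrix arrays, and depth is set by their number, 3 per stage. The deposited values are log2 intensities that the authors made with RMA, which subtracts background, quantile-normalizes probes and summarises each probe set, and their processing notes name Affymetrix Expression Console and Partek 6.6. They were used as deposited, with array medians from 4.00 to 4.20. Samples were grouped by the labels, and p-values measure the spread between these samples. Stage means were compared in R 4.3.3 with limma 3.58.1 in 1 model of 12 stages, with Benjamini-Hochberg adjustment over 45101 probe sets. The level of 5 was applied after the fit. Of the probe sets, 6937 carry no gene ID, and 567 symbols were restored from gene IDs. Genes outside the members were read from their probe set of highest mean.

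The members and gene lists were chosen with earlier results of these data known. Named were all members; from the pathway lists (all but the cell type and liver markers) the 10 highest and 5 lowest differences among strict calls at E10.5 against young adult (wide calls where fewer were strict) and every strict call for old against young adult, of which there were 0; and for each member the 3 genes with the best r over stages, of which 1 is not reported here. Lists covered PRC2 partners, PRC1, erasers of their marks, DNA methylation, S phase, mitosis and markers of cardiomyocytes, endothelium, fibroblasts, epicardium, erythroid cells, leukocytes, adipocytes and liver. Paired differences used exact permutation (scipy 1.17.1). Promoter windows are from RefSeq (GRCm38.p6). The fit was tested on simulated data before use. Alternatives concerned normalization, limits, probe set choice, the variance model, arrays left out, blocks and the control covariate.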

Additional observations from a re-analysis of the deposited data

How the results depend on the processing

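Of the alternatives to counts of called members, 255 stayed within 1.5 times or were 0 where the main count was 0, and 39 did not. On the probe sets of highest mean, none of the members' differences that passed changed direction. With the control covariate, Suz12 1427253_s_at and 1452364_at turned sign for E10.5 against young adult (2.80 to −0.04 and 2.03 to −0.27). Strict calls higher at E10.5 than in young adults numbered 4, and were 2 under quantile normalization, 2 with arrays centred on the median of probe sets above 5, 8 at a fold limit of 1 and 7 when any probe set of a gene counted, an alternative chosen after seeing the data. Strict calls lower at E10.5 numbered 0, and 1 under each of these 4 settings. Centring shifted the median of all probe sets by −0.53 for E10.5 against young adult, −0.18 for E19.5, −0.34 for E10.5 against E19.5 and −0.14 for old adult; with it Dnmt1 gave 1.88 and Ezh1 −2.19 for E10.5. Quantile normalization gave Dnmt1 1.94 and Dnmt3a 1.54 and shifted the median of E10.5 against E19.5 by 0.11. Strict calls higher at E19.5 numbered 0, and were 5 at a fold limit of 1 and 1 with any probe set. Wide calls lower at E19.5 numbered 2, were 1 when probe sets of a gene were averaged, and ranged from 1 to 2 when 1 array was left out. For E10.5 against E19.5 the strict count of 1 became 0 under quantile normalization, averaged probe sets, a fit on the 2 groups alone and the control covariate, 3 at a fold limit of 1 and 4 with any probe set. For old against young adult the wide count of 1 lower became 2 with centring and 0 with averaged probe sets, a variance trend, the 2 groups alone and sex label as a block, with 0 in each fit that left out 1 array; under the covariate 1 was lower, but Uhrf1 in place of Dnmt3a, and the count of 0 higher became 1 (Hells 1430139_at), while Hells 1417541_at was lower (−0.85).

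From E10.5 to E11.5 the count of 2 lower became 1 with averaged probe sets and 0 with the 2 groups alone or the covariate, and ranged from 0 to 2 when 1 array was left out; the count of 0 higher became 1 with any probe set (Dnmt3a 1460324_at, 0.54). These stages share replicate numbers 1 to 3 in the labels. With the number as a replicate block the count was 0, with Uhrf1 at −0.94 and Eed at −0.95 (limma adjusted p = 0.0557 for both). Deviations from the stage mean correlated by 0.22, −0.25 and 0.17 between arrays of the same number over 20685 probe sets, and not every array correlated best with its own number, so the arrays are taken to share only a number. The causes were not tested. With 3 arrays per stage, changes of a probe set near or under 5, where signal is close to background, are the least certain.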
